A study of Mus musculus with 4 samples.

Results

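The 8 genes described here are the transcription factor genes Runx2, Sp7, Dlx3 and Barx1, the enzyme gene Alpl, and the matrix protein genes Spp1, Ibsp and Bglap. They were taken by symbol from the 27998 genes of the count tables, and the choice of these symbols was made with earlier results of these data known. All 8 were found, each as 1 row. The cells came from mouse inner ear organoids, which are aggregates of embryonic stem cells grown until some of them form inner ear epithelium with hair cells, and which also hold other tissues. The KO organoids carried a disrupted Tmprss3 with a GFP knock-in (Tmprss3KO-GFPKI) in the R1/E embryonic stem cell line. The WT organoids came from R1/E itself, and both lines have the 129X1x129S1 background. Organoids of each line were taken at day 35 and at day 25, dissociated with TrypLE and captured with the 10x v2 chemistry, which gave 4 libraries (KO day 35, WT day 35, KO day 25, WT day 25) with 1 library per group. The labels do not say how many organoids went into a library or how many KO clones were used, so the mutation, the cell line and the culture cannot be told apart.

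Bone is laid down by osteoblasts, which arise from mesenchymal cells. Runx2 starts the osteoblast programme and Sp7 (osterix) acts after it, while Dlx3 and Barx1 are homeodomain factors of skin appendages, teeth and jaw mesenchyme. Alpl encodes the tissue-nonspecific alkaline phosphatase that frees phosphate for mineral, and is also active in pluripotent stem cells. Ibsp (bone sialoprotein) and Bglap (osteocalcin) encode proteins of mineralised matrix, and Spp1 (osteopontin) encodes a secreted protein that osteoblasts, macrophages and many stromal cells make. The bony capsule of the inner ear forms around the otic epithelium from neighbouring mesenchyme.

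After barcodes with fewer than 500 genes or more than 10% mitochondrially encoded UMIs (unique molecules) were removed, 6729, 8166, 11190 and 9768 cells remained in KO day 35, WT day 35, KO day 25 and WT day 25, with medians of 4420, 3089, 6371 and 6166.5 UMIs. Levels are given as CPM, the gene's UMIs per 1000000 UMIs of the cells named. Intervals are exact 95% intervals that cover counting error only, and with 1 library per group no difference has a test. Tmprss3 gave 5 and 8 UMIs in KO and WT at day 35, and 7 and 18 in KO and WT at day 25, too few to check the labels. Any pair of libraries shared between 76 and 142 barcodes. Cells were placed in 22 classes by at least 3 of fixed markers, which took between 62.6% and 78.3% of a library. Hair cells by their own markers numbered 35, 53, 10 and 17 in KO day 35, WT day 35, KO day 25 and WT day 25, so the otic label had support in every library. The skeletal muscle class was not used as such, because between 13.3% and 30.5% of its cells lay in the muscle-like cluster of an unsupervised clustering. That cluster, cluster 7, was taken as cells that should lack these genes, an assumption that was not tested. Clusters are given beside the classes.

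Measured over whole libraries, the members did not move together. At day 25, Barx1 was past 2-fold higher in KO than in WT, and Sp7, Ibsp and Bglap were past 2-fold lower, among 8 members with at least 50 UMIs over both libraries. Of the 15573 genes that met this minimum, 1.89% were past 2-fold higher and 3.68% past 2-fold lower. Sp7, Ibsp and Bglap each held fewer than 50 UMIs in the KO library and met the minimum through the WT library. At day 35, Alpl was past 2-fold higher in KO than in WT, and Barx1 and Spp1 were past 2-fold lower, among 5 members measured. The shares of all genes were 7.82% higher and 2.41% lower. Alpl held 35 UMIs in WT at day 35 and met the minimum through KO.

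Between the days, day 35 over day 25, 1 of 5 members measured in KO was past 2-fold, Barx1 on the lower side, against 11.3% of all genes higher and 7.28% lower, which is a count near the background. At 1.5-fold, 3 of the 5 passed in KO, against 35.3% of all genes in either direction. In WT, 8 members were measured, of which Spp1 was past 2-fold higher and Sp7, Alpl, Ibsp and Bglap were past 2-fold lower, against 6.96% and 13% of all genes. Sp7, Alpl, Ibsp and Bglap held 5, 35, 0 and 7 UMIs in WT day 35. They met the minimum through WT day 25, where they were high, so this count of lower members is no separate support. The comparisons between genotypes and between days share libraries. The median log2 ratio of all genes was 0.23 for KO over WT at day 35, 0.14 for day 35 over day 25 in KO and -0.14 for that in WT. Centring on these medians changed the sign of no ratio of a member that met the minimum of 50 UMIs. In a whole-library sum, fewer cells of a type and less RNA per cell cannot be told apart.

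**Figure D1:**
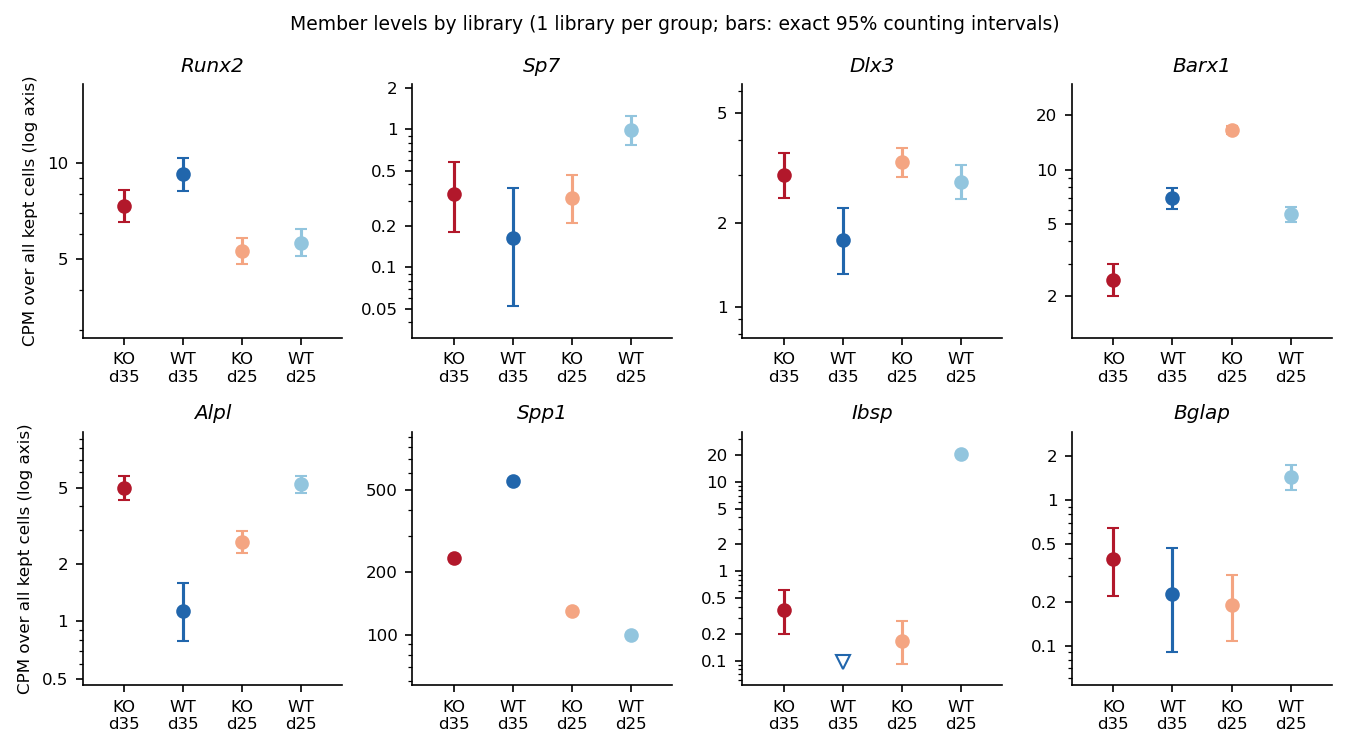
Level of each gene over all kept cells of each library, in CPM on log axes that differ between panels. Points are single libraries, bars are exact 95% counting intervals (hidden by the point for Spp1), and the open triangle marks a floor of 3 UMIs where Ibsp had 0. Ibsp, Sp7 and Bglap were highest in WT day 25, Barx1 in KO day 25 and Spp1 in WT day 35.

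Runx2, the master factor of osteoblast commitment, was read in all 4 libraries at a low level and was past 2-fold in no comparison. It had 7.36 CPM (6.53 to 8.27; 282 UMIs) in KO day 35, 9.26 CPM (8.22 to 10.4; 286 UMIs) in WT day 35, 5.31 CPM (4.83 to 5.82; 448 UMIs) in KO day 25 and 5.64 CPM (5.11 to 6.21; 412 UMIs) in WT day 25. Both day 35 libraries were above both day 25 libraries, and at day 25 the intervals of the genotypes overlapped. Between genotypes, KO over WT, Runx2 had a log2 ratio at day 35 of -0.33 (-0.57 to -0.09), and at day 25 of -0.09 (-0.28 to 0.11). Between days, day 35 over day 25, it had 0.47 (0.25 to 0.69) in KO and 0.71 (0.49 to 0.94) in WT.

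Runx2 was spread thinly over many cells. No cell held more than 5 of its UMIs, and 3.79%, 3.17%, 3.58% and 3.57% of the cells of KO day 35, WT day 35, KO day 25 and WT day 25 held any. In cluster 7 the shares were 2.67%, 1.11%, 1.39% and 0.762% at median depths of 6816, 5617, 11897 and 11404 UMIs. With cells thinned to 2000 UMIs, the library shares were 1.75%, 1.74%, 1.13% and 1.15% (707 WT day 35 cells were shallower and left out). The gated fibroblasts had 15.5 CPM in KO and 16.9 CPM in WT at day 35, and held 45.7% and 30.1% of the libraries' Runx2 UMIs. Cluster 4, a fibroblast-like cluster led by Mfap5, Cilp and Pi16, had 17.9 CPM (14.1 to 22.3) in KO and 20.7 CPM (16.4 to 25.8) in WT at day 35, a log2 ratio of -0.21 (-0.68 to 0.26).

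Runx2 was also found in cell types that are not part of the skeleton. Schwann or satellite glia-like cluster 19 had 25.8 CPM in KO day 35, 60.3 CPM in WT day 35, 17.6 CPM in KO day 25 and 15.02 CPM in WT day 25, from 7, 9, 42 and 9 UMIs. Keratinocyte-like cluster 12 had 14.3 CPM in KO and 21.0 CPM in WT at day 35, and 10.1 CPM in KO and 10.8 CPM in WT at day 25. The intervals of KO over WT in cluster 12 included 0 on both days. The gated Otoa and Cldn9 otic epithelium was lower in KO at day 35, with 2.42 CPM (10 UMIs) in KO and 11.0 CPM (23 UMIs) in WT, a log2 ratio of -2.18 (-3.42 to -1.06). The unnamed cluster 9 was lower in KO at day 25, with 4.15 CPM (3 UMIs) in KO and 22.1 CPM (54 UMIs) in WT, a log2 ratio of -2.41 (-4.74 to -0.79). Runx2 lies on chromosome 17 (GRCm38, 44495987 to 44814797, minus strand) and overlaps Supt3 and the antisense genes Runx2os1, Runx2os2 and Runx2os3, and how the counting treated strand is not given in the sources used here.

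Sp7, the zinc finger factor that osteoblasts need after Runx2, gave 13 UMIs (0.339 CPM) in KO day 35, 5 UMIs (0.162 CPM) in WT day 35, 27 UMIs (0.320 CPM) in KO day 25 and 72 UMIs (0.986 CPM) in WT day 25. WT day 25 stood above the other libraries, whose intervals overlapped. At day 25, KO over WT gave Sp7 a log2 ratio of -1.62 (-2.32 to -0.97), and that of day 35 over day 25 in WT was -2.61 (-4.27 to -1.32). In KO, each of the cells with Sp7 held a single UMI on both days, and in WT day 25 the richest cell held 8. At day 35 the 18 UMIs over both genotypes were under the minimum, and their log2 ratio of 1.07 (-0.51 to 2.91) did not separate them. Of the 72 UMIs in WT day 25, 37 lay in 12 cells rich in Ibsp that are described below, and the other 9756 cells of that library held 35 UMIs, or 0.48 CPM. Without the 12 cells, Sp7 in KO over WT at day 25 came to -0.59 (-1.37 to 0.18) on the log2 scale, which is not past 2-fold.

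Dlx3, a homeodomain factor of hair follicle, tooth and bone cells, was found mostly in epithelial clusters. It had 3.00 CPM (115 UMIs) in KO day 35, 1.75 CPM (54 UMIs) in WT day 35, 3.33 CPM (281 UMIs) in KO day 25 and 2.83 CPM (207 UMIs) in WT day 25. WT day 35 was the lowest, and the intervals of the other libraries overlapped. For KO over WT, Dlx3 had a log2 ratio at day 35 of 0.78 (0.30 to 1.27), and at day 25 of 0.23 (-0.03 to 0.50). Cluster 25, keratinocyte-like and led by the hair follicle keratins Krt35 and Krt71, held 54.1% of the Dlx3 UMIs of KO day 25 and 38.6% of those of WT day 25. Its level was 107 CPM (90.5 to 125) in KO and 58.6 CPM (46.5 to 72.9) in WT, with 123 cells in each, a log2 ratio of 0.87 (0.47 to 1.28). Cluster 25 had 21 KO and 6 WT cells at day 35.

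At day 35 otic clusters 11 and 16 held 50.4% and 27.8% of the Dlx3 UMIs of KO, and 14.8% and 11.1% of those of WT. Otoconial otic epithelium-like cluster 11 had 17.1 CPM (12.96 to 22.1) in KO, from 58 UMIs in 484 cells, and 3.30 CPM in WT, from 8 UMIs in 454 cells, a log2 ratio of 2.37 (1.30 to 3.65). The gated class gave 13.8 CPM in KO and 3.26 CPM in WT, a log2 ratio of 2.08 (0.85 to 3.603). In cluster 16, the other otic cluster with Otoa and Cldn9, the levels were 9.45 CPM in KO and 9.14 CPM in WT, a log2 ratio of 0.05 (-1.23 to 1.597). The unnamed cluster 9 (leading genes Cldn10, Napsa, Krt18) had 7.02 CPM in KO and 8.68 CPM in WT at day 35, and held 27 of the 54 Dlx3 UMIs of WT. The intervals of KO over WT in the otic clusters at day 25 included 0. Dlx3 in muscle cluster 7 lay between 0 and 1.43 CPM.

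Barx1, a homeodomain factor of jaw, tooth and stomach mesenchyme, was the member with the most uneven levels between KO libraries. It had 2.45 CPM (1.98 to 3.00; 94 UMIs) in KO day 35, 6.96 CPM (6.06 to 7.96; 215 UMIs) in WT day 35, 16.6 CPM (15.7 to 17.5; 1399 UMIs) in KO day 25 and 5.64 CPM (5.11 to 6.21; 412 UMIs) in WT day 25. KO was highest at day 25 and lowest at day 35, with the WT libraries in between. At day 35, KO over WT had a log2 ratio of -1.50 (-1.87 to -1.15), and at day 25 one of 1.55 (1.39 to 1.72). Day 35 over day 25 gave -2.76 (-3.07 to -2.45) in KO and 0.30 (0.06 to 0.54) in WT.

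At day 25, Barx1 was found mostly in clusters 0 and 1, which held 54.0% and 25.7% of its UMIs in KO. In cluster 0 (leading genes Nrn1, Pgf, Col12a1, Twist2) the level was 42.9 CPM (39.9 to 46.1) in KO and 15.4 CPM (13.3 to 17.8) in WT, a log2 ratio of 1.476 (1.24 to 1.72). Cells with a Barx1 UMI made up 19.3% of 2997 KO cells and 6.76% of 2130 WT cells there, at median depths of 5378 and 4958 UMIs. In fibroblast-like cluster 1 (Agtr2, Dpt, Clec3b) the levels were 24.6 CPM in KO and 14.2 CPM in WT, a log2 ratio of 0.79 (0.50 to 1.09). Muscle cluster 7 had 4.11 CPM in KO and 1.51 CPM in WT, a log2 ratio of 1.45 (0.32 to 2.68), so cells that should lack the gene showed a lower level with a like ratio. Shares of cells with a UMI in cluster 7 were 5.31% in KO at a median of 11897 UMIs and 1.52% in WT at a median of 11404 UMIs. Over the whole libraries they were 9.20% and 3.31%, and with cells thinned to 2000 UMIs 3.44% and 1.28%.

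At day 35 other clusters carried Barx1, and KO was the lower one. Fibroblast-like cluster 4 had 7.80 CPM (34 UMIs in 1000 cells) in KO and 27.9 CPM (108 UMIs in 1093 cells) in WT, a log2 ratio of -1.84 (-2.44 to -1.27). The unnamed cluster 2 (leading genes Ero1l, Mmp3, Hspa5) had 5.85 CPM in KO and 9.25 CPM in WT, a log2 ratio of -0.66 (-1.32 to -0.02). The gated fibroblasts gave 3.84 CPM in KO and 19.8 CPM in WT at day 35, a log2 ratio of -2.37 (-2.99 to -1.78), and 25.7 CPM in KO and 11.8 CPM in WT at day 25, a log2 ratio of 1.12 (0.88 to 1.37). Clusters 0 and 1 held 121 and 79 KO cells and 52 and 25 WT cells at day 35, against 1407, 864 and 1000 KO cells and 1758, 1412 and 1093 WT cells in clusters 2, 3 and 4.

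A list of 10 other genes of the Dlx and Barx families or of jaw and tooth mesenchyme was compared as well. At day 25, 3 of 10 measured were past 2-fold higher in KO than in WT and 0 past 2-fold lower, namely Dlx1 (3.28 CPM in KO, 0.931 CPM in WT), Dlx2 (4.68 CPM in KO, 2.08 CPM in WT) and Lhx6 (0.545 CPM in KO, 0.178 CPM in WT). Of all genes at day 25, 1.89% were past 2-fold higher and 3.68% lower. Lhx6 held 13 UMIs in WT day 25 and met the minimum through KO, where it was high. The median log2 ratio of the list was 0.52, and that of all genes -0.03. At day 35, where Barx1 was lower in KO, 1 of 9 was past 2-fold higher, Pax9, and none lower, with 2.56 CPM in KO and 0.453 CPM in WT. Pax9 too met the minimum through KO, and a gene that does so is no separate support. Between the days, day 35 over day 25, 7 of 10 were past 2-fold lower in KO and 5 of 9 in WT, with none past 2-fold higher. Of all genes, 7.28% were past 2-fold lower in KO and 13% in WT. Dlx2, Lhx8, Hand2 and Pitx1 were among them in both genotypes, and Hand2, for example, had 0.861 CPM in KO day 35 and 3.17 CPM in KO day 25.

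**Figure D2:**
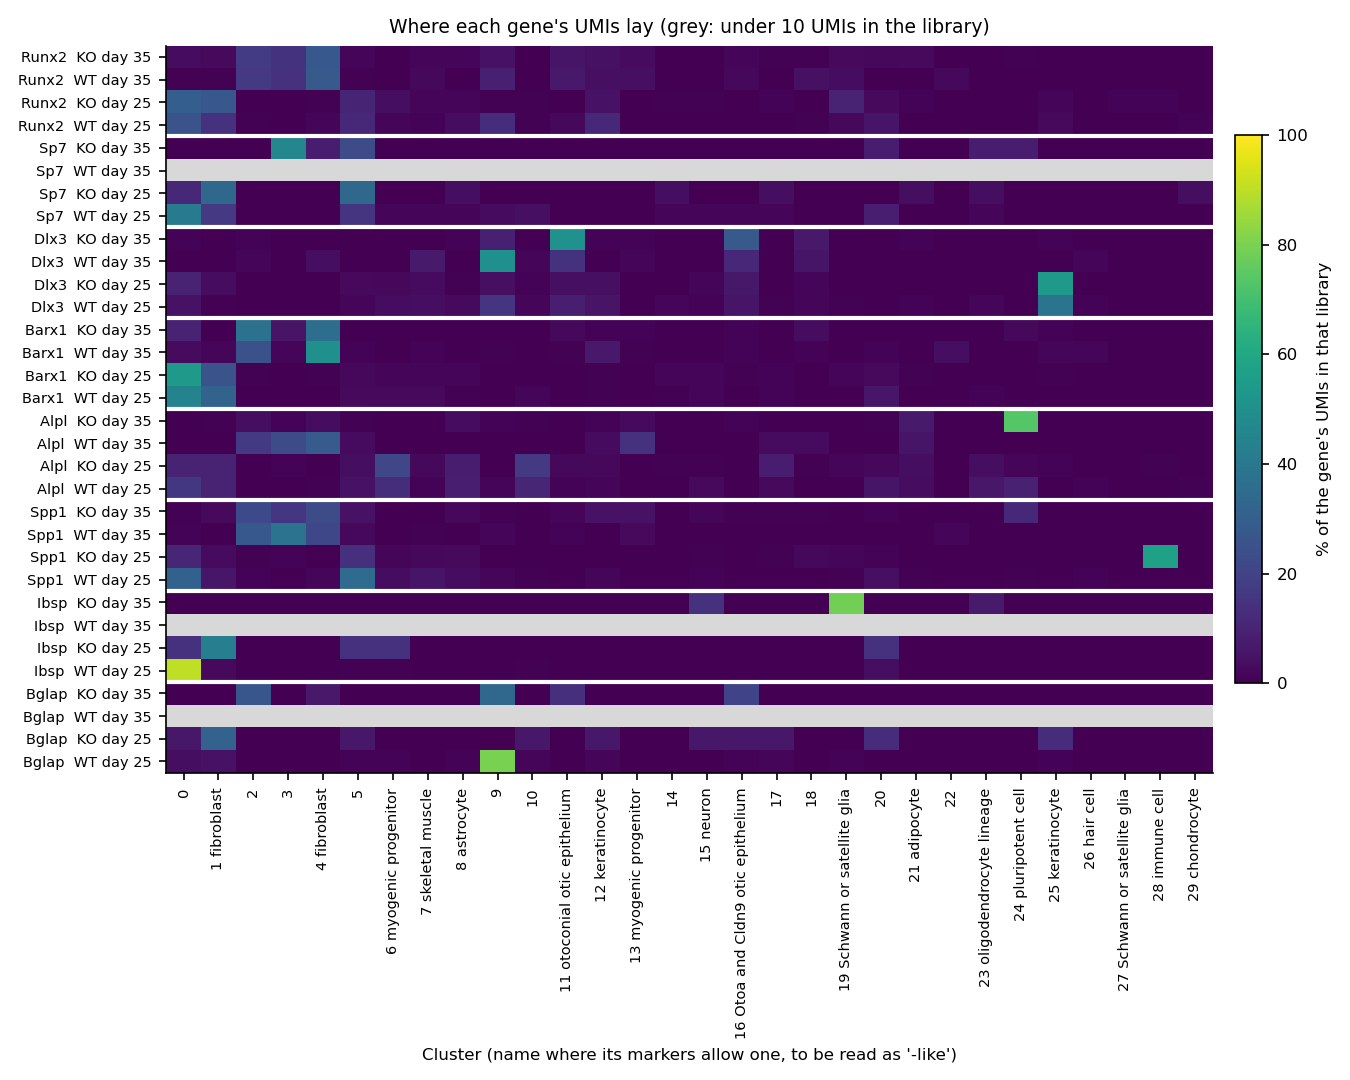
Share of each gene's UMIs, in percent of the gene's UMIs in that library, that lay in each of 30 clusters. Rows are genes and libraries, and rows in grey had under 10 UMIs. Ibsp of WT day 25 lay in cluster 0 (90.6%), Bglap of WT day 25 in cluster 9 (80.0%), Alpl of KO day 35 in pluripotent cell-like cluster 24 (73.7%) and Spp1 of KO day 25 in immune cell-like cluster 28 (57.2%).

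Alpl, the phosphatase of mineralising cells, had 4.96 CPM (4.28 to 5.72; 190 UMIs) in KO day 35, 1.13 CPM (0.789 to 1.58; 35 UMIs) in WT day 35, 2.61 CPM (2.27 to 2.97; 220 UMIs) in KO day 25 and 5.20 CPM (4.69 to 5.75; 380 UMIs) in WT day 25. KO day 35 and WT day 25 were high with overlapping intervals, and WT day 35 was lowest. In log2 terms, Alpl in KO over WT stood at 2.13 (1.604 to 2.69) at day 35, and at -0.998 (-1.24 to -0.75) at day 25. In KO day 35, 139 of the 190 UMIs (73.2%) lay in 320 gated pluripotent cells, at 26.9 CPM (22.6 to 31.8), and WT day 35 held 0 such cells. Without pluripotent cells, the log2 ratio of KO over WT at day 35 was 0.44 (-0.21 to 1.11), and that of day 35 over day 25 in KO was -0.73 (-1.20 to -0.29), against 0.93 (0.64 to 1.21) with all cells.

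At day 25 Alpl was spread over several cell types, and in clusters 0, 1, 20 and 23 it was lower in KO with an interval below 0 when all cells were counted. Cluster 0 had 1.25 CPM in KO and 5.20 CPM in WT, a log2 ratio of -2.06 (-2.83 to -1.33), and cluster 1 had 1.44 CPM in KO and 4.02 CPM in WT, a log2 ratio of -1.49 (-2.33 to -0.68). In gated myogenic progenitors the levels were alike, 11.2 CPM in KO and 11.3 CPM in WT, a log2 ratio of -0.01 (-0.57 to 0.57). Oligodendrocyte lineage-like cluster 23 had 6.69 CPM in KO and 17.5 CPM in WT, a log2 ratio of -1.39 (-2.75 to -0.19). The 11 gated pluripotent cells of WT day 25 held 34 Alpl UMIs, or 168 CPM. The 12 cells rich in Ibsp, described next, held 63 of the 380 UMIs of WT day 25, among them 29 of 62 in cluster 0 and 18 of 21 in cluster 20. Without them, an alternative added after the data were seen, the log2 ratio was -1.15 (-2.00 to -0.33) in cluster 0, -1.19 (-2.06 to -0.33) in cluster 1 and 0.73 (-1.63 to 3.41) in cluster 20, where the direction turned. Over the whole libraries it was -0.74 (-0.99 to -0.49).

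Among the matrix genes, Ibsp and Spp1 are neighbours on chromosome 5 of GRCm38, both on the plus strand, with 123649 bases between them. Ibsp lies at 104299171 to 104311469 and Spp1 at 104435118 to 104441050. Bglap lies on chromosome 3 at 88383501 to 88384464, minus strand. Windows from 250 bases before to 50 after the RefSeq start (GRCm38.p6) were found for 6 of the 8 members and are shown for the 3 matrix genes, whose levels differed so much between cells, and for Runx2, whose protein binds a core of the letters ACCACA. The windows are chr5:104299037-104299336 for Ibsp, chr5:104434861-104435160 for Spp1, chr3:88384417-88384716 for Bglap and chr17:44814578-44814877 for Runx2. Capitals mark each match to ACCACA, and the reverse complement TGTGGT was searched as well.
Ibsp: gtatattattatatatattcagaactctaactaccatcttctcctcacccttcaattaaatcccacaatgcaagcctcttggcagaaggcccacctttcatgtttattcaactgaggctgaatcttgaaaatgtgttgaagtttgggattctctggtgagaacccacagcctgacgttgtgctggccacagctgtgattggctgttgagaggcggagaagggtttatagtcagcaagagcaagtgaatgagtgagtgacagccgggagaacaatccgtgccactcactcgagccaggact
Spp1: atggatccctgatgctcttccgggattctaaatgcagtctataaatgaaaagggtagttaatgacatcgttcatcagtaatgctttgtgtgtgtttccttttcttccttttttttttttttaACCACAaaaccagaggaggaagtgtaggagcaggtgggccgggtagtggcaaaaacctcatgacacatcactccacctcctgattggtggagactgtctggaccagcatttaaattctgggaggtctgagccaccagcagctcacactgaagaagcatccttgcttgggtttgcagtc
Bglap: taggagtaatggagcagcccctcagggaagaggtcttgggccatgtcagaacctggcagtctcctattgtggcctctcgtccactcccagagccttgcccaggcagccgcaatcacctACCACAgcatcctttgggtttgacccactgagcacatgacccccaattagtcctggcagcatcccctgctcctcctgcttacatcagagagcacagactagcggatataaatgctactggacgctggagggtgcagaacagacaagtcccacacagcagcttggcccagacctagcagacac
Runx2: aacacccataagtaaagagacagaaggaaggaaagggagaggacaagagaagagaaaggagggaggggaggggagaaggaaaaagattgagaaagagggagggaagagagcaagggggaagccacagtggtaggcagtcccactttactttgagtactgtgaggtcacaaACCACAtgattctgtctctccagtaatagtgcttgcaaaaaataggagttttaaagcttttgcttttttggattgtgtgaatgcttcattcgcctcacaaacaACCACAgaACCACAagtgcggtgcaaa
The motif was found 3 times in the Runx2 window, 1 time each in those of Spp1 and Bglap, and 0 times in those of Ibsp, Alpl and Barx1. Of 27025 windows of the same length, 4568 (16.9%) held it at least 1 time.

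Ibsp, the sialoprotein of mineralising bone, was found mostly in 12 cells of 1 library. It gave 14 UMIs (0.365 CPM) in KO day 35, 0 UMIs in WT day 35 (a floor of 3 UMIs is 0.0971 CPM), 14 UMIs (0.166 CPM) in KO day 25 and 1481 UMIs (20.3 CPM; 19.3 to 21.3) in WT day 25. At day 25, KO over WT gave Ibsp a log2 ratio of -6.93 (-7.81 to -6.18), and without the 12 cells described below one of -2.29 (-3.24 to -1.43). Against WT day 25, WT day 35 was 209-fold lower when set at its floor of 3 UMIs over the library. That is no lower bound, as the upper limit of the interval for its 0 UMIs was 0.119 CPM. Without the 12 cells, WT day 25 had 0.809 CPM. In WT day 25, 12 cells with at least 5 Ibsp UMIs held 1422 of the 1481 UMIs (96.0%), and 1 of them held 638. They made up 0.123% (0.0635 to 0.215) of its cells. The minimum of 5 UMIs was set after the values were seen.

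Cells with fewer Ibsp UMIs are read as background only under the assumption that muscle cluster 7 lacks the gene. In WT day 25, 56 cells held 1 to 4 UMIs, and the share of all cells with a UMI was 0.696% at a median depth of 6166.5 UMIs, against 0.762% (4 of 525 cells) in muscle cluster 7 at a median of 11404 UMIs. With cells thinned to 2000 UMIs, the library share was 0.317%. No thinned share is given for cluster 7, so these shares are not matched for depth. KO had 1 cell with at least 5 Ibsp UMIs on each day, with 9 UMIs at day 35 and 5 UMIs at day 25. Neither of these KO cells held a UMI of another member or of Ifitm5.

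The 12 cells rich in Ibsp also held other osteoblast genes, of which Ifitm5, Pth1r and Smpd3 are named because they led the 12 cells by fold, after their values were seen. Ifitm5, a membrane protein gene known from osteoblasts, gave 1515 CPM in the 12 cells and 1.44 CPM in the other 9756 cells of WT day 25, and was found in 11 of 12. Sp7 was found in 11 of 12, with 298 CPM against 0.48 CPM in the other cells, and Alpl in 11 of 12, with 508 CPM against 4.35 CPM. Runx2 was found in 10 of 12, with 177 CPM against 5.35 CPM. Pth1r, the parathyroid hormone receptor gene, was found in all 12, with 580 CPM against 14.8 CPM. The type I collagen genes Col1a1 and Col1a2 reached 25475 and 22461 CPM in the 12 cells, against 1771 and 1815 CPM in the other cells. Smpd3, a sphingomyelinase gene needed for mineralisation, was found in 10 of 12, with 508 CPM against 3.28 CPM. The collagen genes Col11a1 and Col11a2 were also among the genes leading by fold. Col11a1 was found in all 12, with 677 CPM against 19.2 CPM, and Col11a2 in 7 of 12, with 250 CPM against 6.75 CPM.

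Other members and lists were absent, low or mixed in these cells. Barx1 had 0 UMIs in all 12, Bglap had 5 UMIs in 2 of them, and Bglap2 and Bglap3 had 0. Spp1 was found in 10 of 12, with 419 CPM against 99.2 CPM in the other cells. The osteocyte gene Dmp1 had 0 UMIs and Mepe had 2. Of the 19 genes of bone matrix and mineralisation other than the members, 5 were found in at least 6 of the 12 cells. These were Col1a1, Col1a2, Sparc, Ifitm5 and Cdh11. In all, 11 of the 19 were found in a higher share of the 12 cells than of the other cells. Mgp (96.7 CPM against 294 CPM in the other cells) and Enpp1 (0 against 17.8 CPM) were among those lower. Of the 17 cartilage genes compared there, Pth1r alone was found in at least 6 of the 12 cells. In all, 8 of the 17 were found in a higher share of the 12 cells than of the other cells. Comp (5 of 12 cells, 113 CPM against 1.34 CPM) was among these 8, and Sox9 (16.1 CPM against 58.6 CPM) was among those lower. Of the 9 genes of osteoclasts and their regulators, none was found in at least 6 of the 12 cells. Of the 16 osteoblast transcription factors and partners, 3 were found in at least 6, namely Dlx5, Atf4 and Prrx1, though Atf4 and Prrx1 had no higher CPM there than in the other cells (242 and 72.5 CPM against 313 and 79.0 CPM). Of the 12 cells, 8 lay in cluster 0 and 2 had a high doublet score, and their median depth was 10254 UMIs against 6164 in the other cells of WT day 25. They made up no cluster of their own. By the gates, 6 of them fell in the skeletal muscle class, which was not used as such. Another 4 passed the gate for skeletogenic mesenchyme, a list that holds Ifitm5 but no member.

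**Figure D3:**
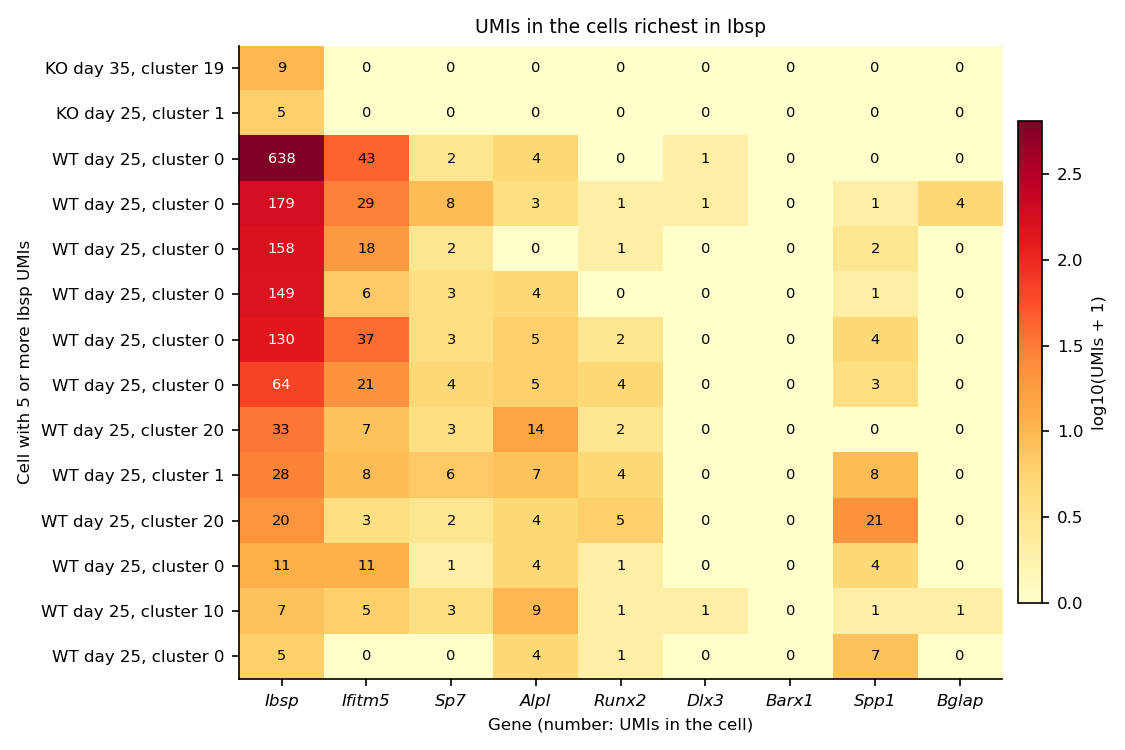
UMIs of Ibsp, Ifitm5 and the other 7 members in each cell with at least 5 Ibsp UMIs. Rows are cells with their library and cluster, and colour is log10(UMIs + 1). The KO cells at the top, with 4225 and 3593 UMIs in all, have Ibsp alone among these genes. The 12 WT day 25 cells below them, with a median of 10254 UMIs, hold Ibsp with Ifitm5 and Sp7 in 11 cells and with no Barx1.

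Sp7 and Ibsp were seen in the same cells in WT day 25, all of them among the 12 cells rich in Ibsp. Of 45 cells with Sp7, 11 (24.4%) also held Ibsp, against 57 of 9723 cells (0.59%) without Sp7. The 34 cells with Sp7 outside the 12 held no Ibsp. Runx2 was found in 10 of the 45 (22.2%), against 339 of 9723 (3.49%), and Barx1 in 0 of the 45, against 323 of 9723 (3.32%). Most of the 10 cells with Sp7 and Runx2 were also rich in Ibsp. The WT day 25 shares with Ibsp and Runx2 thus mostly describe the same 12 cells again. In KO day 25, 2 of 401 cells with Runx2 (0.50%) held Sp7, against 25 of 10789 without (0.23%). In WT day 25 these were 10 of 349 (2.87%) and 35 of 9419 (0.37%). Depth differs between cells with and without a gene, and its part in these shares was not tested.

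Bglap, the vitamin K-dependent osteocalcin of bone, gave 15 UMIs (0.392 CPM) in KO day 35, 7 UMIs (0.227 CPM) in WT day 35, 16 UMIs (0.189 CPM) in KO day 25 and 105 UMIs (1.44 CPM; 1.18 to 1.74) in WT day 25. WT day 25 stood above the others, whose intervals overlapped. Bglap had a log2 ratio of KO over WT at day 25 of -2.92 (-3.78 to -2.16), and without the richest cell of each library one of -2.48 (-3.52 to -1.57). In WT day 25 the unnamed cluster 9 held 84 of the 105 UMIs (80.0%) in 9 of its 258 cells, and 1 cell held 47. Cluster 9 is led by Cldn10, Lect1, Napsa and Krt18, which are not osteoblast genes, and its 82 KO cells at day 25 held 0 Bglap UMIs. The richest cell also held 17 UMIs of Bglap2, 1 of Bglap3 and 0 of Ibsp.

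Bglap belongs to a tandem family whose reads are hard to tell apart. Bglap2 lies 4802 bases from Bglap, and Bglap3 a further 4993 bases from Bglap2. Of the 569 windows of 50 bases in the transcript of Bglap, 51.3% also occur in that of Bglap2 and 19.3% in that of Bglap3, so the counts of Bglap and Bglap2 are uncertain. Bglap2 was 1.91 CPM in KO and 1.49 CPM in WT at day 35, and 0.296 CPM in KO and 0.959 CPM in WT at day 25. Bglap3 was 2.61 CPM in KO and 10.6 CPM in WT at day 35, and 0.959 CPM in KO and 2.78 CPM in WT at day 25. At day 25 all 3 genes were thus lower in KO, with log2 ratios of KO over WT of -1.69 (-2.42 to -1.02) for Bglap2 and -1.53 (-1.92 to -1.16) for Bglap3. The cells richest in Bglap3 lay mostly in keratinocyte-like cluster 12, one of them with 106 UMIs in WT day 35.

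Spp1, which encodes the phosphoprotein osteopontin, had 235.0 CPM (230.1 to 239.9; 9001 UMIs) in KO day 35, 552 CPM (543 to 560; 17036 UMIs) in WT day 35, 130 CPM (127 to 132; 10959 UMIs) in KO day 25 and 99.8 CPM (97.5 to 102; 7286 UMIs) in WT day 25. Both day 35 libraries stood above both day 25 libraries, KO was lower than WT at day 35, and KO was higher than WT at day 25. For Spp1 in KO over WT the log2 ratio came to -1.23 (-1.27 to -1.19) at day 35, and to 0.38 (0.34 to 0.42) at day 25. For day 35 over day 25 it came to 0.86 (0.82 to 0.90) in KO and 2.47 (2.43 to 2.51) in WT.

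A small group of immune cells set the level of Spp1 in KO day 25. The 54 gated immune cells of that library, marked by macrophage genes such as C1qa, Tyrobp and Csf1r, had 7871 CPM (7666 to 8079) and held 5622 of its 10959 UMIs (51.3%). The richest cell of the library held 1223. WT day 25 and WT day 35 held 0 gated immune cells, and KO day 35 held 3. Without gated immune cells, the log2 ratio of KO over WT at day 25 was -0.65 (-0.70 to -0.60), so the direction turned, and that of day 35 over day 25 in KO was 1.88 (1.83 to 1.93). At day 35 Spp1 was also found in the 320 pluripotent cells of KO, at 199 CPM.

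**Figure D4:**
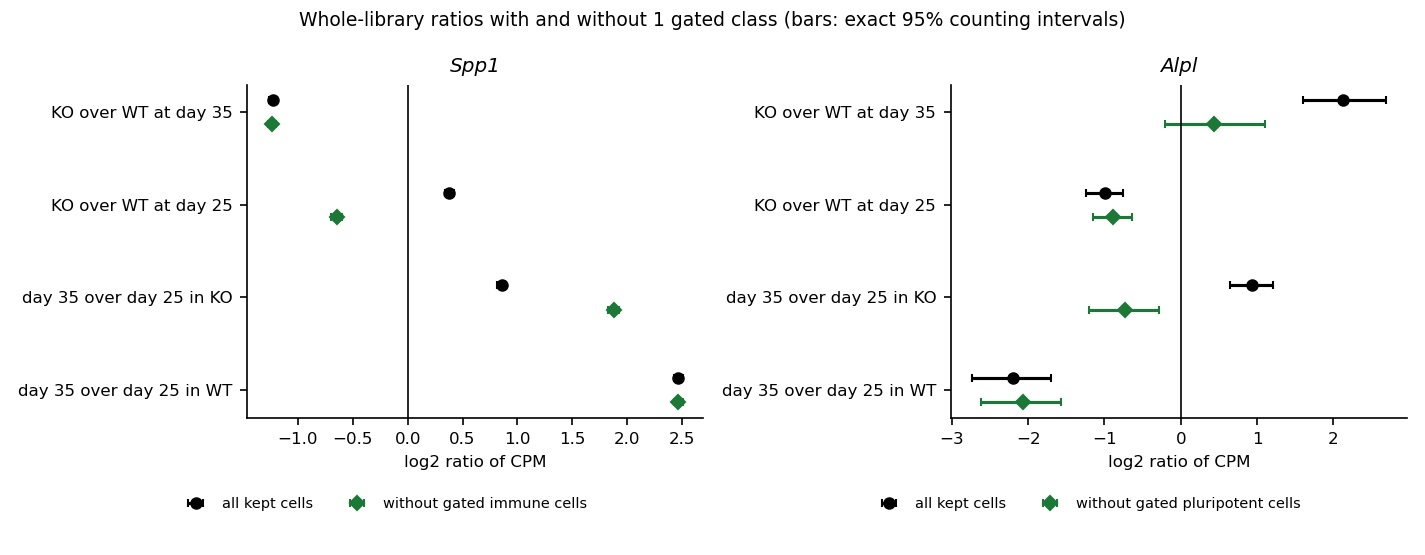
Log2 ratios of CPM for Spp1 (left) and Alpl (right) in 4 comparisons, with all kept cells (black circles) and without 1 gated class (green diamonds), bars being exact 95% counting intervals. Without immune cells, Spp1 at day 25 was lower in KO (-0.65 against 0.38 with all cells). Without pluripotent cells, Alpl of day 35 over day 25 in KO was -0.73 against 0.93.

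In gated fibroblasts Spp1 was lower in KO than in WT on both days, and so it was in clusters 2, 3 and 4 at day 35 and in clusters 0 and 5 at day 25. At day 35, the unnamed cluster 2 had 331 CPM in KO and 815 CPM in WT, a log2 ratio of -1.30 (-1.38 to -1.22). Cluster 3, unnamed and led by Otos, Apod and Ptgds, had 372 CPM in KO and 1464 CPM in WT, a log2 ratio of -1.98 (-2.06 to -1.89). Cluster 4 had 472 CPM in KO and 951 CPM in WT, a log2 ratio of -1.01 (-1.09 to -0.93). Clusters 2, 3 and 4 held 22.0%, 15.8% and 22.8% of the Spp1 UMIs of KO day 35, and 27.4%, 38.2% and 21.6% of those of WT day 35. The gated fibroblasts had 446 CPM in KO and 1218 CPM in WT, a log2 ratio of -1.45 (-1.51 to -1.39).

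At day 25, cluster 5 (leading genes Cldn11, Aldh1a2, Tgfbi) had 228 CPM in KO and 387 CPM in WT, a log2 ratio of -0.76 (-0.86 to -0.67). Cluster 0 had 66.9 CPM in KO and 191 CPM in WT, a log2 ratio of -1.51 (-1.62 to -1.41). The gated fibroblasts had 59.5 CPM in KO and 124 CPM in WT, a log2 ratio of -1.06 (-1.16 to -0.96). Muscle cluster 7, whose cells were assumed to lack the gene, had 18.8 CPM in KO and 47.4 CPM in WT at day 35, and 38.8 CPM in KO and 63.7 CPM in WT at day 25. Whether these cells make Spp1 themselves was not tested. Fibroblast-like cluster 1 at day 25, with 22.97 CPM in KO and 47.2 CPM in WT, lay under the muscle cluster in both genotypes. It is read as background under that assumption only. Muscle was thus lower in KO as well, by a log2 ratio at day 35 of -1.33 (-2.07 to -0.66), and at day 25 of -0.72 (-0.96 to -0.48).

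Some clusters went the other way in CPM. Fibroblast-like cluster 1 at day 35 had 572 CPM in 79 KO cells and 60.5 CPM in 25 WT cells, from 225 and 7 UMIs. These UMIs lay in 5 KO cells (6.33%) and 4 WT cells (16%). Cluster 3 at day 25 had 760 CPM in 26 KO cells and 165 CPM in 10 WT cells, from 110 and 8 UMIs. These UMIs lay in 4 KO cells (15.4%) and 2 WT cells (20%). In both clusters a few cells carried the KO level, and the share of cells with a UMI was lower in KO. Keratinocyte-like cluster 12 had 501 CPM in KO and 101 CPM in WT at day 35, a log2 ratio of 2.31 (1.91 to 2.73), but 14.3 CPM in KO and 27.7 CPM in WT at day 25. In KO day 35, 1 of the 142 cells of cluster 12 held 266 of its 456 UMIs, and without the richest cell of each library the log2 ratio was 1.85 (1.32 to 2.43). Keratinocytes gated by markers had 36.6 CPM in KO and 31.2 CPM in WT at day 35, a log2 ratio of 0.23 (-0.93 to 1.57). Myogenic progenitor-like cluster 13 had 465 CPM in KO and 226 CPM in WT at day 35, a log2 ratio of 1.04 (0.85 to 1.23). Astrocyte-like cluster 8 had 90.2 CPM in KO and 48.4 CPM in WT at day 25, a log2 ratio of 0.90 (0.64 to 1.16). In the otic epithelium at day 35, cluster 11 had 31.5 CPM in KO and 59.9 CPM in WT, and cluster 16 had 12.4 CPM in KO and 65.5 CPM in WT, levels close to those of muscle. Gated hair cells with an Spp1 UMI numbered 2 of 35 in KO and 4 of 53 in WT at day 35.

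**Figure D5:**
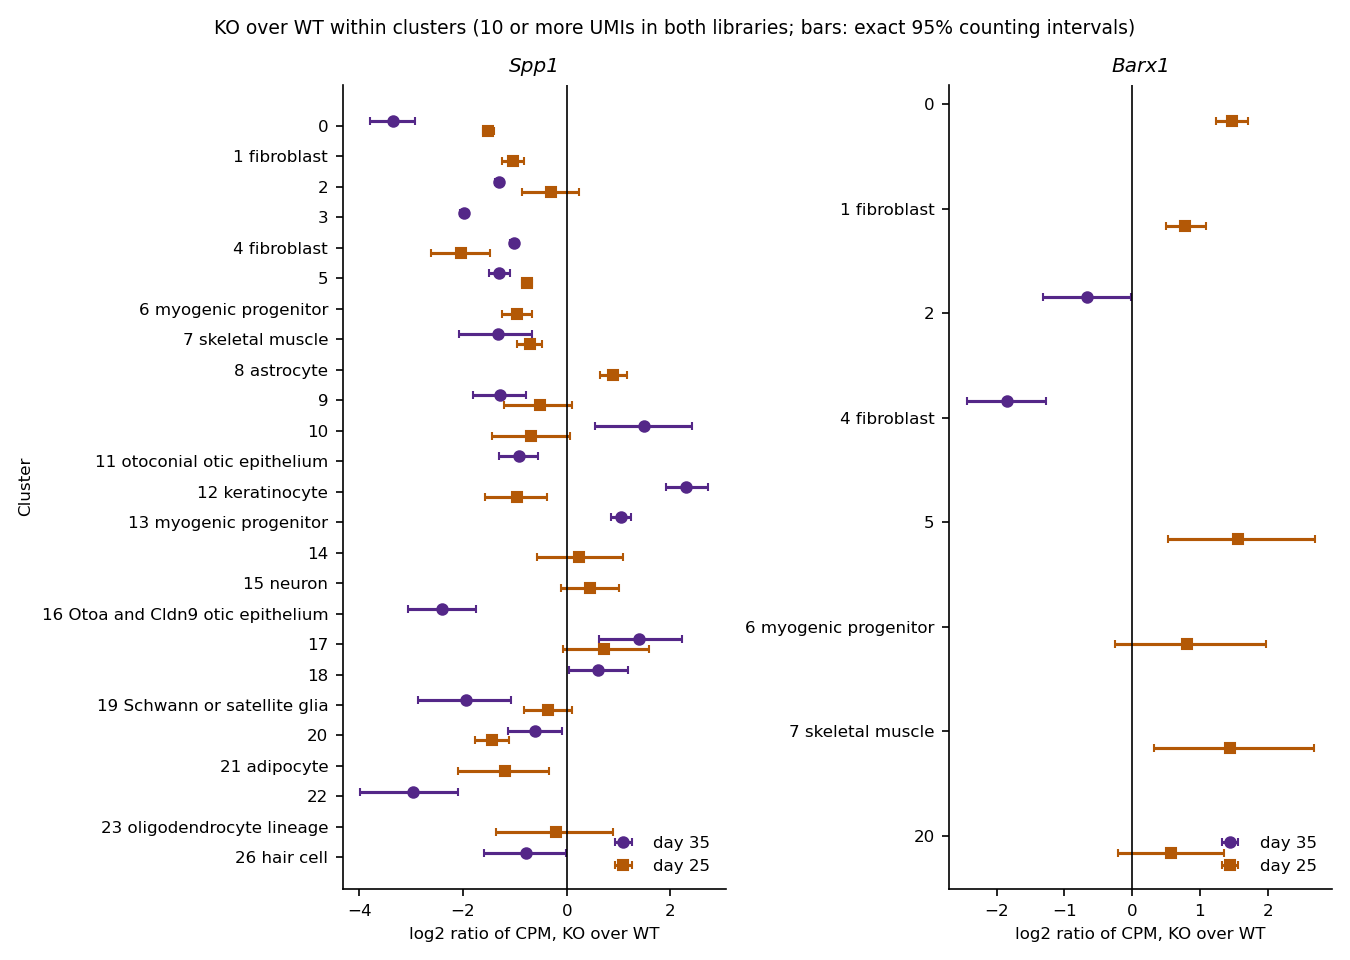
Log2 ratio of CPM, KO over WT, within clusters for Spp1 (left) and Barx1 (right), at day 35 (purple circles) and day 25 (orange squares). Clusters with at least 10 UMIs in both libraries are drawn, with exact 95% counting intervals. Spp1 lay below 0 in clusters 0 to 5 at each day drawn (cluster 1 at day 35 and cluster 3 at day 25 had under 10 UMIs in WT and are not drawn), and Barx1 lay above 0 at day 25 (1.476 in cluster 0) and below 0 at day 35 (-1.84 in cluster 4).

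The share of cells with Spp1 could not be read as the share that express it. It was 18.1% in KO day 35, 20.3% in WT day 35, 11.2% in KO day 25 and 11.6% in WT day 25, against 10.0%, 9.35%, 11.8% and 11.6% in muscle cluster 7. With cells thinned to 2000 UMIs, the library shares were 11.5%, 17.1%, 5.34% and 6.06%. At least 5 UMIs were held by 346 cells of KO day 35, 653 of WT day 35, 239 of KO day 25 and 334 of WT day 25.

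The 9 integrin and Cd44 receptor genes for osteopontin and bone sialoprotein were all measured in all comparisons, and none was past 2-fold in either direction. For KO over WT, the list's median log2 ratio at day 35 was -0.17, and at day 25 it was 0.09, beside medians of 0.23 and -0.03 over all genes. The counts of the next lists stand beside 7.82% of all genes past 2-fold higher and 2.41% lower at day 35, and beside 1.89% higher and 3.68% lower at day 25. Of 19 genes of bone matrix and mineralisation other than the members, 14 were measured at day 35, of which Dmp1, Bglap3 and Ogn were past 2-fold lower in KO and none higher. Dmp1, a matrix protein gene of osteocytes and teeth, had 4.44 CPM in KO and 18.2 CPM in WT at day 35 and is a leading gene of myogenic progenitor-like cluster 13. At day 25, 15 were measured, of which Bglap2 and Bglap3 were past 2-fold lower in KO and none higher. In KO and in WT, Ifitm5 was past 2-fold lower on day 35 than on day 25. It had 0.783 CPM in KO day 35 against 2.12 CPM in KO day 25, and 0.809 CPM in WT day 35 against 4.01 CPM in WT day 25. Of the Ifitm5 UMIs of WT day 25, 188 lay in the 12 cells rich in Ibsp and 105 in the other 9756 cells, which had 1.44 CPM. The Ifitm5 ratio between the days in WT thus rests in large part on those 12 cells.

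Of the 16 osteoblast transcription factors and partners, Alx1, a craniofacial mesenchyme factor, was past 2-fold lower in KO at day 25 (1.10 CPM in KO, 6.71 CPM in WT), and none was higher. At day 35, 13 were measured and Msx2 was past 2-fold higher in KO (2.92 CPM in KO, 1.33 CPM in WT). Of 14 cartilage genes measured at day 25, 5 were past 2-fold lower in KO and none higher, beside 3.68% of all genes lower and 1.89% higher, among them Comp (0.154 CPM in KO, 1.53 CPM in WT) and Col9a1 (6.81 CPM in KO, 25.9 CPM in WT). The median log2 ratio of the 14 cartilage genes was -0.66. Comp met the minimum through WT, where it was high, so it is no separate support in this count. Of its UMIs in WT day 25, 14 lay in the 12 cells rich in Ibsp and 98 in the other cells. Chondrocyte-like cluster 29 held 4 KO and 44 WT cells at day 25, and the part of cell number in these ratios was not tested. Of the 9 genes of osteoclasts and their regulators, 6 were measured at day 25 and none was past 2-fold. At day 35, 5 were measured, and Calcr and Tnfsf11, the gene of the osteoclast differentiation factor RANKL, were past 2-fold lower in KO (Tnfsf11 1.41 CPM in KO, 3.43 CPM in WT).

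Between the days, day 35 over day 25, the list counts stand beside 11.3% of all genes past 2-fold higher and 7.28% lower in KO, and 6.96% higher and 13% lower in WT. The transcription factor list had 1 of 16 past 2-fold higher and 4 lower in KO, and 0 of 15 higher and 5 lower in WT. Twist2, a factor that holds back osteoblast differentiation, was among the lower ones in both, with 10.1 CPM in KO day 35 against 24.3 CPM in KO day 25. The cartilage list had 3 of 13 higher and 3 lower in KO, and 1 of 14 higher and 8 lower in WT. Of the osteoclast list, 3 of 6 were higher in KO and 3 of 5 in WT, with none lower. Tnfrsf11b, which encodes the RANKL decoy osteoprotegerin, had 13.9 CPM in KO day 35 against 1.71 CPM in KO day 25, and 9.94 CPM in WT day 35 against 1.99 CPM in WT day 25.

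Genes with the most similar pattern were sought by correlation of log-scaled counts across the cells of each library, with a mean over the 4 libraries of at least 0.1 and a positive value in each. Spp1 had Timp1 (mean r of 0.21), Ctsl (0.20), Gng11 (0.19), Fn1 (0.18) and Enpp1 (0.17). Barx1 had Dlk1 and Mab21l2 (0.13 each), Col1a1, Postn and Bgn (0.12 each). Dlx3 had the epithelial genes Epcam (0.16), Spint2 (0.15), Rab25 (0.15), Epha1 and Klc3 (0.14 each). Bglap had Bglap2 alone (0.38), with which it shares sequence. None met the rule for Runx2, Sp7, Alpl or Ibsp. Cells of a library share their depth and free RNA, and these are weak correlations in sparse counts, given as a description with no test.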

How the data were processed

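Single-cell RNA was counted in 4 libraries. The deposited tables hold whole-number UMI counts per gene and barcode, made by the authors. Cell Ranger 2.1.0, bcl2fastq, Seurat 2.3.1, R 3.5.1 and the mm10 and GRCm38 builds are named per the submitters' processing notes. The sources used here do not give counting settings such as strand and multi-mapping. The members and gene lists were chosen with earlier results of these data known.

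A barcode was kept with 500 genes or more and with 10% or less of its UMIs from mitochondrially encoded genes. Genes with at least 50 UMIs over both libraries of a comparison were measured, and a ratio past 2-fold was counted. Intervals are exact Poisson or conditional binomial at 95%, and a floor is 3 counts. UMIs from neighbouring cells and amplification errors are not covered. Where labels give 1 library per group, no test across libraries exists. The calculations were tested on simulated counts.

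Cells were put in 22 classes by at least 3 markers. Clusters came from 2000 variable genes without the members, 30 principal components, 20 neighbours and Leiden resolution 1.0, and gave 30 clusters. A cluster was named when 3 of a class's markers were among its 20 leading genes, limits set after seeing the data. Doublets were scored at 0.8% per 1000 barcodes and not removed. For shares of cells, cells were thinned to 2000 UMIs. All 8 members are named, list genes are named beside their counts, and the 5 most similar genes were sought among those with at least 200 UMIs. Alternatives covered the barcode filter, doublets, the total, centring, the minimum count, the fold and the number of markers. Of 27998 gene IDs, 27645 were found in the GRCm38 annotation. Python 3.11.15, numpy 2.4.6, scipy 1.17.1, pandas 2.3.3, scikit-learn 1.9.0, igraph 0.11.9, leidenalg 0.10.2 and matplotlib 3.10.9 were used.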

Additional observations from a re-analysis of the deposited data

Results flagged for a closer look

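Members whose KO over WT ratio had opposite signs on the 2 days, or whose day 35 over day 25 ratio had opposite signs in the 2 genotypes, are given here. With 1 library per group, none of these differences was tested.

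Barx1 had a log2 ratio of KO over WT of -1.50 at day 35 and 1.55 at day 25, and its log2 ratio of day 35 over day 25 was -2.76 in KO and 0.30 in WT. Alpl had a log2 ratio of KO over WT of 2.13 at day 35 and -0.998 at day 25, and its log2 ratio of day 35 over day 25 was 0.93 in KO and -2.20 in WT. Spp1 had a log2 ratio of KO over WT of -1.23 at day 35 and 0.38 at day 25. For Alpl the pluripotent cells of KO day 35, and for Spp1 the immune cells of KO day 25, held more than 50% of the UMIs of their library.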

How the results depend on the processing

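No paired analysis was possible because each group has 1 library. The counts of members past 2-fold were 3 for KO over WT at day 35, 4 at day 25, 1 for day 35 over day 25 in KO and 5 in WT. For day 35 over day 25 in KO the count was 3 with at least 1000 genes and at most 5% mitochondrially encoded UMIs, 2 with the mean of each cell's own CPM, 3 at 1.5-fold and 2 without immune cells. The other 44 alternative counts stayed within 1.5 times. Of the single ratios and levels, 369 stayed within the counting interval, 58 moved beyond it and 4 reversed. The reversed ones were Alpl for day 35 over day 25 in KO without pluripotent cells (-0.73), Spp1 for KO over WT at day 25 without immune cells (-0.65), Spp1 for KO over WT at day 35 in the Otoa and Cldn9 class gated at 2 markers (0.24), and Alpl for KO over WT at day 25 in cluster 20 without the cells rich in Ibsp (0.73). Leaving out immune cells, pluripotent cells, cells rich in Ibsp or the richest cell were choices made after seeing the data. Ibsp at day 25 had a log2 ratio of KO over WT of -6.76 without the richest cell of each library. Low counts limit Sp7, Ibsp and Bglap, which had under 50 UMIs in every library but WT day 25. The median depth was 6371 UMIs in KO day 25 and 6166.5 UMIs in WT day 25.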
